A study of Mus musculus with 2 samples.

Results

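The 10 genes described here are Sqstm1, Nbr1, Map1lc3b, Gabarapl1, Ulk1, Becn1, Atg5, Atg7, Wipi1 and Optn, which cover core steps of autophagy and its ubiquitin-binding receptors. They were chosen by symbol, and all 10 were found among the 18220 genes of the deposited table. RNA was sequenced from B16 cells, a pigmented mouse melanoma line, treated with LY500307, and from B16 cells given a control treatment. LY500307, also called erteberel, is a synthetic agonist of estrogen receptor beta. Each group was 1 library, so no difference has a replicate check and no test between treatments was possible. Every value describes these 2 libraries, and whether either pooled several cultures was not stated. The sources used here give neither the dose and time of LY500307 nor what the control treatment was.

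Autophagy encloses cytoplasm in a double membrane, the autophagosome, and delivers it to the lysosome. A kinase complex built on ULK1 and a lipid kinase complex that contains beclin 1 start the membrane, and WIPI proteins bind the lipid made there. ATG7 and the conjugate that contains ATG5 then attach proteins of the ATG8 family, such as LC3B and GABARAPL1, to the membrane. Receptors such as p62, NBR1 and optineurin hold ubiquitinated cargo and bind these ATG8 proteins. In melanocytes the transcription factor MITF belongs to the same family as TFEB and TFE3, which drive lysosome and autophagy genes. Transcript levels do not measure the flow of cargo through the pathway.

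The LY500307 library held 14698853 reads and the control library 16704950. Levels are counts scaled to the library size (CPM), on the authors' own scaling. A fold is log2((LY500307 + 1)/(control + 1)) in CPM, and the 12243 genes that averaged 1 CPM or more over both libraries were compared. Intervals are exact Clopper-Pearson 95% intervals of the ratio of reads. They cover counting error only, since 1 library a group gives no spread between cultures. Reads copied by PCR are not independent molecules, so the intervals may be too narrow even for counting error. The 7 melanocyte markers had 297.7 to 9705 CPM in the LY500307 library and 320.8 to 10406 CPM in the control library. Of the markers of other cell types, Cd68, Col1a1, Col1a2 and Pdgfra were read here, none above 4.82 CPM in either library. The other 9 were not found by symbol in the deposited table. In bulk RNA, fewer cells of a kind and less RNA per cell cannot be told apart.

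Most of the 10 genes lay close together in both libraries, and Sqstm1 carried the clearest difference. At least 1.2-fold higher in the LY500307 library were 2 of 10, Sqstm1 and Atg7, where 11.5% of all compared genes were. At least 1.2-fold lower were 0 of 10, where 9.91% of all compared genes were. None was 1.5-fold apart in either direction, against 2.25% of all compared genes higher and 1.39% lower, and none was 2-fold apart, against 0.253% higher and 0.123% lower. Counting intervals lay above 0 for 5 of 10, where 17.2% of all compared genes did, and below 0 for 0 of 10, where 19.2% did. The median fold of the 10 genes was 0.14 on the log2 scale, with a range of -0.09 to 0.34, and the median of all compared genes was -0.01. The shares over all compared genes include genes near 1 CPM, and the share past 1.2-fold depended on level. Among genes within 2-fold of the level of Sqstm1, 1.91% were 1.2-fold higher and 2.55% lower. For Wipi1 these were 11.2% and 9.88%. The share of counting intervals clear of 0 depended on level too. Near the level of Sqstm1, 30.6% lay above 0 and 46.5% below, and near that of Wipi1 16.8% and 15.2%. With 10 genes and 1 library a group these shares are a description.

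**Figure D1:**
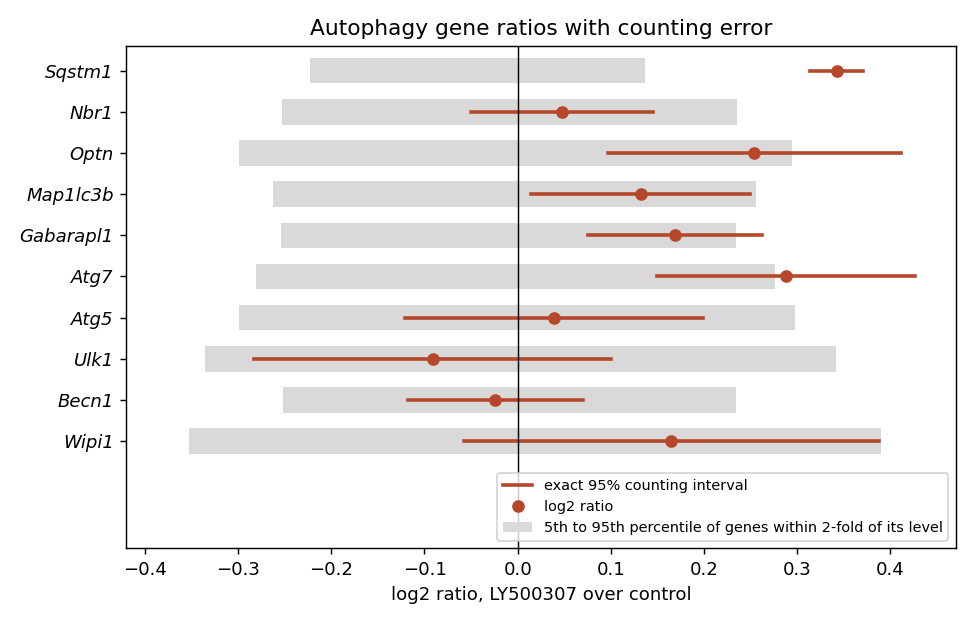
Log2 ratio of the LY500307 over the control library for the 10 genes (points) with exact 95% counting intervals (lines). Grey bars span the 5th to 95th percentile of genes within 2-fold of each gene's mean level. Sqstm1, at 0.34, lies clear of its grey bar on the right, Atg7, at 0.29, lies just past the end of its bar with an interval that reaches into it, and Ulk1 and Becn1 are the 2 points left of 0.

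Sqstm1 (ENSMUSG00000015837) encodes p62, a receptor that gathers ubiquitinated proteins into bodies and links them to LC3. It is also a known target of the oxidative stress factor NRF2 and binds its inhibitor KEAP1. Sqstm1 was at 1411 CPM in the LY500307 library and 1113 CPM in the control library, on 20884 and 18467 reads. The LY500307 library was the higher one, with a ratio of 1.27 and an interval of 1.24 to 1.29. By level Sqstm1 was the 42nd gene in the LY500307 library and the 70th in the control library.

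Abundant genes seldom lay this far apart. Among the 157 genes whose mean level was within 2-fold of Sqstm1, its fold of 0.34 was the highest. The next was Sparc, a matrix protein, at 0.28, and the 5th and 95th percentiles of these 157 genes were -0.22 and 0.14. Of the 249 genes that averaged 500 CPM or more, 5 passed the 1.2-fold rule on the higher side, which is 2.01%. These were Fth1, the ferritin heavy chain, at 0.51, the mitochondrial gene mt-Co1 at 0.37, Sqstm1, Sparc, and the cathepsin D gene Ctsd at 0.28. These 4 other genes are named because their values were seen. In a plane of log2 mean level and log2 fold, the 3 genes nearest to Sqstm1 were Rpl4, Rps3 and Slc45a2, over 2 libraries. Their folds were 0.10, 0.09 and 0.04, all below that of Sqstm1, and the nearest, Rpl4, lay 0.24 log2 units away in that plane.

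**Figure D2:**
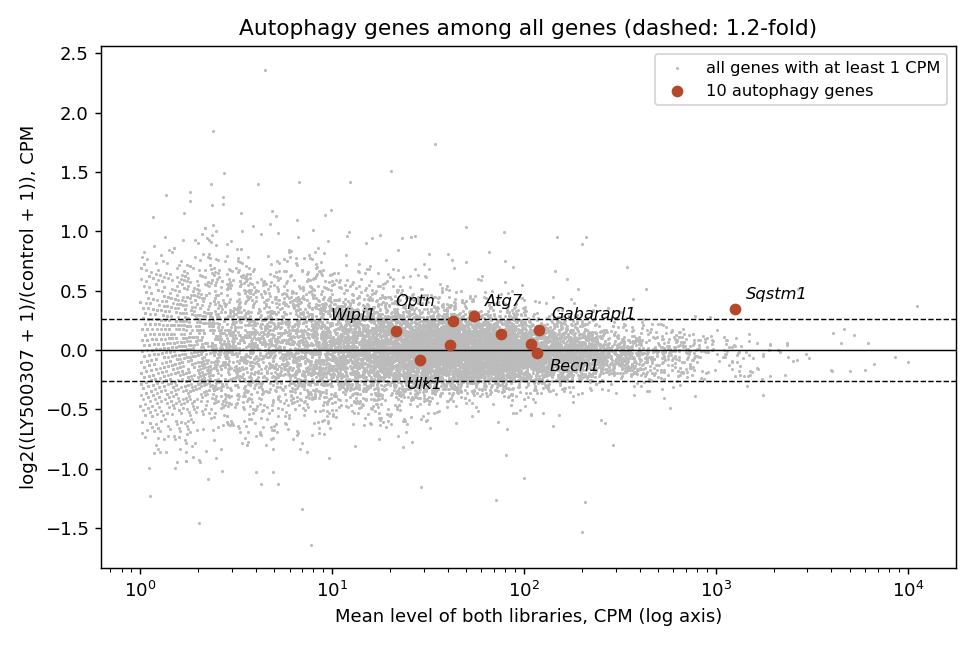
Log2 fold, LY500307 over control, against the mean level in CPM (log axis) for the 12243 genes with at least 1 CPM (grey) and the 10 autophagy genes (red). Dashed lines mark 1.2-fold. Sqstm1 stands at the right, above the line, and Atg7 lies just above the line. The other 8 genes lie between the dashed lines.

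The 300-base window at the start of Sqstm1 is shown because this gene had the largest fold of the 10. It was searched on both strands for the E-box CACGTG, which the MITF and TFE factors bind, and for TGACNNNGC, the core of the antioxidant response element that NRF2 binds. Neither set of letters is in this window, chr11:50210771-50211070 on the minus strand of GRCm38.p6, from RefSeq. The window holds 250 bases before the start and 50 after it.
Sqstm1: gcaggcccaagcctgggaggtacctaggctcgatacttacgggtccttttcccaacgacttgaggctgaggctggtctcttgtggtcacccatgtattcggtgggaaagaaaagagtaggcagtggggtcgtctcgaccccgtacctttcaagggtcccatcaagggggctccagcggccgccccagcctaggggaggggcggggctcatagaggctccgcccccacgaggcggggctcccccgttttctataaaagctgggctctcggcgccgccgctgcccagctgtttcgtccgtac

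Of the other receptors, Optn encodes optineurin, which is phosphorylated by the kinase TBK1 and takes part in the removal of damaged mitochondria and bacteria. Optn was at 46.3 CPM in the LY500307 library and 38.8 CPM in the control library, on 685 and 644 reads. Its ratio was 1.19 with an interval of 1.07 to 1.33, just under the 1.2-fold rule that Atg7 just passed. Nbr1 encodes a receptor built like p62, with a ubiquitin-binding and an LC3-binding part. Nbr1 was at 110.0 CPM in the LY500307 library and 106.4 CPM in the control library, with a ratio of 1.03 and an interval of 0.966 to 1.11. The intervals of Sqstm1 and Nbr1 did not overlap. Per kilobase of the longest transcript, the level of Sqstm1 was 23.0 times that of Nbr1 in the LY500307 library and 18.7 times in the control library.

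Both ATG8 genes of the 10 were slightly higher in the LY500307 library. Gabarapl1, of the GABARAP branch, was at 126.4 CPM in the LY500307 library and 112.5 CPM in the control library. Its log2 ratio was 0.17 with an interval of 0.08 to 0.26. Map1lc3b encodes LC3B, the usual marker of autophagosomes, and was at 79.0 CPM in the LY500307 library and 72.1 CPM in the control library. Its ratio was 1.10 with an interval of 1.01 to 1.19, so its lower bound came close to no difference. Both lay inside the 5th to 95th percentile of genes of like level. Map1lc3b has 4 near-identical pseudogenes, and reads could have been divided among them. The only one read here, Gm6055, had 12.3 CPM in the LY500307 library and 9.76 CPM in the control library, and the fold of Map1lc3b with it added was 0.16 against 0.13 alone. The window of Map1lc3b held 1 match to TGACNNNGC and no E-box.

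Of the lipidation genes, Atg7 passed the 1.2-fold rule and Atg5 did not. Atg7 encodes the enzyme that activates both the ATG8 proteins and ATG12. Atg7 was at 60.3 CPM in the LY500307 library and 49.4 CPM in the control library, on 893 and 820 reads. Its ratio was 1.22 with an interval of 1.11 to 1.34, and 95.5% of the 4568 genes of like level had a fold at or below it. Atg5 encodes the partner of ATG12 in the conjugate that directs lipidation. Atg5 was at 41.5 CPM in the LY500307 library and 40.4 CPM in the control library, with a ratio of 1.03 and an interval of 0.919 to 1.15.

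The windows of Atg7 and Atg5 are shown because they are the 2 of the 9 genes with a window that hold the E-box, given in capitals. The E-box was in 7.15% of all 32851 RefSeq windows of this length, and in 9.43% of the windows of genes in the deposited table. Among the 79 windows of other autophagy genes, from the wider list described below, the share was 10.1%. The Atg7 window is chr6:114670846-114671145 and the Atg5 window chr10:44268089-44268388, both on the plus strand of GRCm38.p6. The ratios of these 2 genes, 1.22 and 1.03, had overlapping intervals, which does not show that the ratios were alike.
Atg7: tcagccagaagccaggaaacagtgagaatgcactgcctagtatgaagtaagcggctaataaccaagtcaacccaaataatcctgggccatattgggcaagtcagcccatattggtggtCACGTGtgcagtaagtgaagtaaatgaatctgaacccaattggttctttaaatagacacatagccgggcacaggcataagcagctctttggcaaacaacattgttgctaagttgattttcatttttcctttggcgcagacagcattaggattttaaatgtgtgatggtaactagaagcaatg
Atg5: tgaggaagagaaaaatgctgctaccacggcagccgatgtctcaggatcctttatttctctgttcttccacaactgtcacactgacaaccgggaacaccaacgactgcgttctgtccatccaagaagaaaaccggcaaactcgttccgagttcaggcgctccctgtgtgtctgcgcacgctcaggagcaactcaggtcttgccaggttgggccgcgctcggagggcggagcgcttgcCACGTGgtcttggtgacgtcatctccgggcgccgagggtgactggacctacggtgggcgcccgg

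TGACNNNGC was in the window of 1 of the 9 genes, Map1lc3b. It was in 12.4% of all windows and in 14.0% of the windows of genes in the deposited table. A match is a string of letters and not a shown binding site, and bases outside these windows were not searched.

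The genes of initiation had counting intervals that included no difference. Becn1, which encodes beclin 1, was at 116.4 CPM in the LY500307 library and 118.4 CPM in the control library. Its ratio was 0.984 with an interval of 0.921 to 1.05. Ulk1, the kinase that starts the process and is held back by mTORC1, was at 27.8 CPM in the LY500307 library and 29.7 CPM in the control library. Its ratio was 0.939 with an interval of 0.822 to 1.07, on 412 and 492 reads. Wipi1 was at 22.6 CPM in the LY500307 library and 20.2 CPM in the control library, on 335 reads in each. Its ratio was 1.12 with an interval of 0.961 to 1.31. For Wipi1 and Ulk1, the least read of the 10, a difference of this size was not detectable at this depth.

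The order of the 10 genes by level was nearly the same in both libraries. Per kilobase of the longest annotated transcript, Sqstm1 led with 527.9 CPM in the LY500307 library and 416.4 CPM in the control library. Gabarapl1 followed at 69.5 CPM per kilobase in the LY500307 library and 61.8 in the control library. Becn1, Nbr1 and Map1lc3b came next, at 26.7, 23.0 and 19.1 CPM per kilobase in the LY500307 library and 27.1, 22.2 and 17.4 in the control library. Optn, Atg5 and Atg7 were neighbours at 17.7, 17.6 and 15.5 in the LY500307 library and 14.8, 17.2 and 12.7 in the control library, and Optn and Atg5 stood in opposite order there. Wipi1 and Ulk1 were lowest, at 6.78 and 5.34 in the LY500307 library and 6.05 and 5.69 in the control library. Sqstm1 made up 69.1% of the summed CPM of the 10 genes in the LY500307 library and 65.4% in the control library. The sum of the other 9 was 630.4 CPM in the LY500307 library and 587.8 CPM in the control library. By coding length Map1lc3b moved to the third place, ahead of Becn1, and 4 of the 10 genes kept their place. With 1 library a group, neighbours in this order have no replicate spread to be judged by.

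**Figure D3:**
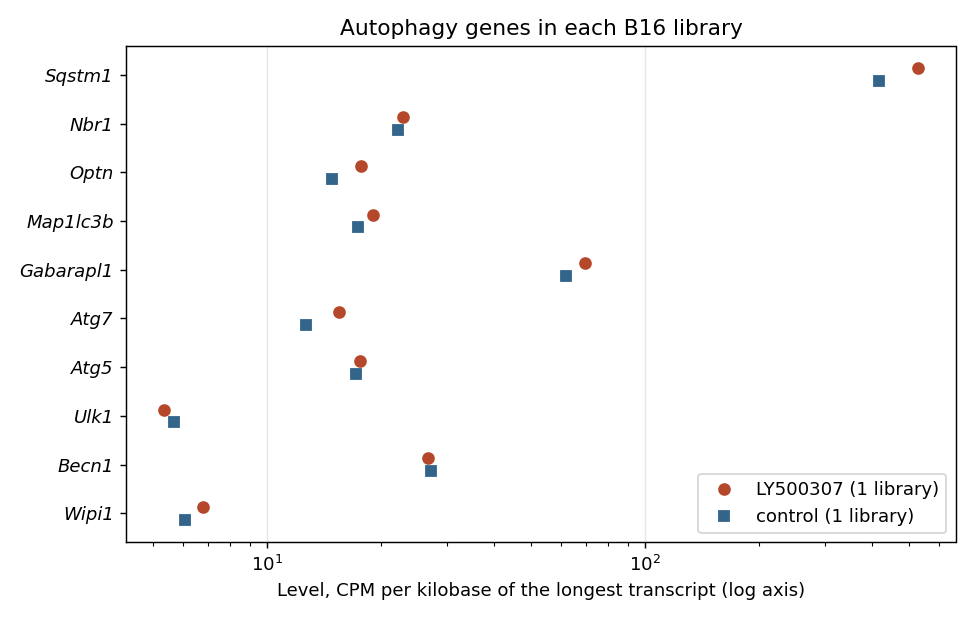
Level of each gene in CPM per kilobase of its longest transcript (log axis) in the LY500307 library (red circles) and the control library (blue squares), 1 library each. Sqstm1 is highest in both, at 527.9 and 416.4 CPM per kilobase, and Ulk1 and Wipi1 are lowest.

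Genes that overlap the exons of these 10 on the opposite strand had few reads in most cases. The libraries were stranded, but no source used here says whether the counting took strand into account. Mrnip, which overlaps Sqstm1, was at 4.93 CPM in the LY500307 library and 4.22 CPM in the control library, far under Sqstm1. Cntd1, 1700101I11Rik and 4930551O13Rik, which overlap Becn1, Gabarapl1 and Optn, had at most 9 reads in either library. Zcchc14, which overlaps Map1lc3b by 58 bases, was at 41.0 CPM in the LY500307 library and 44.4 CPM in the control library.

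A wider list of 70 other autophagy genes, in 9 steps, placed these genes in their pathway. Of these 70, 69 were read and 68 had at least 1 CPM. At least 1.2-fold higher were 4 of 68, or 5.88%, where 11.5% of all compared genes were. At least 1.2-fold lower were 3 of 68, or 4.41%, where 9.91% were. Their median fold was 0.03, against 0.14 for the 10 genes, and counting intervals lay above 0 for 13, or 19.1%, and below 0 for 9, or 13.2%. Over all compared genes these shares were 17.2% and 19.2%, so the share above 0 was near the background. The genes past the rule lay in 4 of the 9 steps. Over all compared genes the share past the rule depended on level. Within 2-fold of the level of Atg10, at 3.35 CPM, 26.1% of genes were 1.2-fold higher and 19.2% lower. For Atg3, at 69.9 CPM, these shares were 4.73% and 4.87%, and for Tecpr1, at 698 CPM, 1.28% and 3.59%. So 5.88% and 4.41% do not show fewer differences than genes of like level had.

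Among soluble receptors and adaptors, counting all 8 with Sqstm1, Nbr1 and Optn, the median fold was 0.18. Without those 3 its median was 0.14, under the 0.15 of the ATG8 family taken the same way. Counting intervals lay above 0 for 5 of 8, Sqstm1 and Optn among them, where 17.2% of all compared genes did, and below 0 for 1 of 8, where 19.2% did. Of genes within 2-fold of the level of Sqstm1, 30.6% lay above 0, and of those near Optn 17.4%. Calcoco1, which encodes a receptor for parts of the endoplasmic reticulum and Golgi, was at 47.8 CPM in the LY500307 library and 33.4 CPM in the control library. Its fold was 0.50 with an interval of 0.35 to 0.68 for the log2 ratio. Tbk1, the kinase of optineurin and p62, was at 46.2 CPM in the LY500307 library and 39.7 CPM in the control library, a fold of 0.22. Tollip, an adaptor of ubiquitin-bound cargo named after its value was seen, was the member of this step with an interval below 0, at -0.13.

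The step of organelle and cargo receptors, which here includes the kinase gene Pink1, went both ways. Of its 13 genes with at least 1 CPM, Pink1 was past 1.2-fold on the higher side and Bnip3 on the lower side. Each was 7.69%, where 11.5% of all compared genes were higher and 9.91% lower. Pink1 encodes the kinase that marks damaged mitochondria for parkin, and was at 34.3 CPM in the LY500307 library and 21.8 CPM in the control library, a fold of 0.63 with a log2 ratio interval of 0.46 to 0.85. Bnip3 encodes a mitochondrial receptor induced by low oxygen, and was at 17.7 CPM in the LY500307 library and 40.6 CPM in the control library. Its fold of -1.15 became -1.16 when its pseudogene Gm16439 was added. Its other near-identical pseudogenes had no entry in the deposited table. The median of this step was 0.04.

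The conjugation step held genes on both sides as well. The proteases of the ATG4 family, which trim ATG8 proteins and release them from membranes, were split. Atg4b was at 74.0 CPM in the LY500307 library and 61.3 CPM in the control library, a fold of 0.27. Atg4a was at 26.6 CPM in the LY500307 library and 34.0 CPM in the control library, a fold of -0.34, or -0.32 with its pseudogene. The step's median over 10 genes was 0.06.

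In the ATG8 family the 3 other genes had intervals that included 0. Map1lc3a had a fold of 0.21, Gabarapl2 of 0.15 and Gabarap of -0.04, the last on 169.9 CPM in the LY500307 library and 175.0 CPM in the control library. The median of all 5 ATG8 genes was 0.15.

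Of 11 kinases, transcription factors and other regulators of the pathway, 1 was 1.2-fold higher and 1 was 1.2-fold lower. Each was 9.09%, where 11.5% of all compared genes were higher and 9.91% lower. Tfeb and Tfe3 had folds of 0.05 and 0.07, with intervals that included 0. Mitf was at 297.7 CPM in the LY500307 library and 320.8 CPM in the control library, a fold of -0.11 with a log2 ratio interval of -0.17 to -0.05. Of genes within 2-fold of the level of Mitf, 40.0% had an interval below 0 and 23.2% above. Ddit4, which encodes a stress-induced inhibitor of mTORC1, was at 53.4 CPM in the LY500307 library and 31.2 CPM in the control library, a fold of 0.76. Zkscan3, known in human cells as a repressor of autophagy genes, was at 26.2 CPM in the LY500307 library and 32.5 CPM in the control library, a fold of -0.30. The near-identical copies of Zkscan3 had no entry in the deposited table.

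In the other 4 steps no gene was 1.2-fold apart, where 11.5% of all compared genes were higher and 9.91% lower. The kinase complex of initiation had a median of 0.09, with Atg101 at 0.17 and Rb1cc1, the scaffold also known as FIP200, at 0.14. The class III lipid kinase complex had a median of 0.02, with its subunit genes Atg14 at 0.18 and Uvrag at 0.13. The lipid effectors and transfer proteins had a median of -0.01, with Wdr45, a WIPI protein, at -0.20 and Atg9a, a membrane scramblase, at -0.12. Fusion with the lysosome had a median of 0.02, with the tether gene Epg5 at -0.13 and the SNARE gene Stx17 at -0.13. Counting intervals included 0 for Rb1cc1, Atg14, Wdr45, Epg5 and Stx17. They lay above 0 for Atg101 and Uvrag and below 0 for Atg9a.

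**Figure D4:**
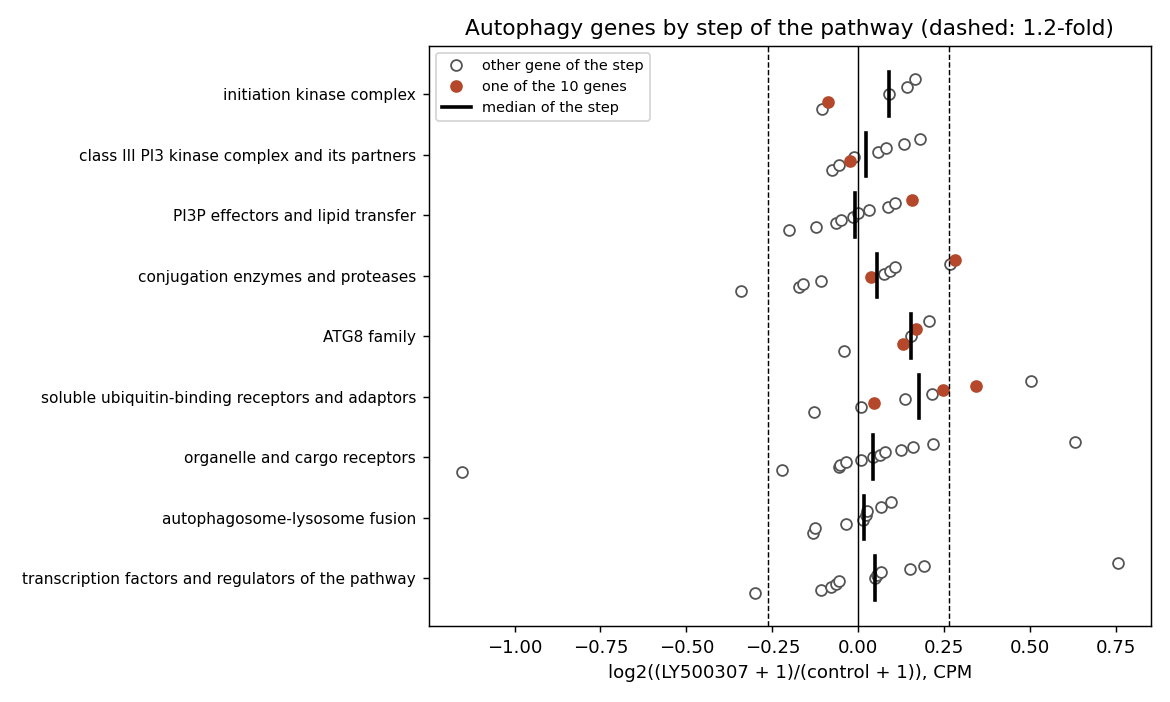
Log2 fold, LY500307 over control, of the autophagy genes with at least 1 CPM in 9 steps of the pathway. Red points are the 10 genes, open points the others, black bars the step medians and dashed lines 1.2-fold. Medians run from -0.01 to 0.18, and Bnip3, at -1.15, is the point farthest from 0.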

How the data were processed

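Per the labels' protocols, stranded libraries were made from total RNA of B16 cells after removal of ribosomal RNA. CASAVA 1.8, Bowtie2 and build mm9 are named in the submitters' processing notes. How reads were counted, with which annotation and filters, is stated by no source used here. The table the authors deposited gives a signal per gene: read counts times 1 factor per library. Dividing by the step between low values, 1.06 in the LY500307 and 0.944 in the control library, turned 100% of the deposited values into whole reads, with a tolerance of 1% of a read. With 1 library per group no count test was run on them.

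CPM were the deposited values over the mean of the 2 library totals, where a read was worth 0.0676 CPM in the LY500307 and 0.0603 CPM in the control library. Symbols matched 18177 of 18224 identifiers, and sums were taken over 8 entries with a shared symbol. Transcript lengths, overlaps and near-identical copies (blastn 2.17.0, at least 95% identity over 100 bases and 50% of the shorter transcript) came from GENCODE M21 on GRCm38, another build than that of the reads, so only promoter windows carry positions. A promoter window was found for 9 of the 10 genes. All 10 genes were named. Of the wider list the rule named the 2 largest absolute folds per step, the other ATG8 genes, Mitf, Tfeb and Tfe3. Members, lists, the 1.2-fold rule and the alternatives were chosen with earlier results of these data known. Calculations were tested on simulated data. Scripts ran on Python 3.11.15 with scipy 1.17.1 and pandas 2.3.3, and figures on matplotlib 3.10.9.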

Additional observations from a re-analysis of the deposited data

How the results depend on the processing

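Each of the 10 folds kept its sign and stayed within its counting interval under 9 alternatives: pseudocounts of 0.5, 5 or none, 3 other scalings, no minimum or 5 CPM, and listed copies added. Not all of these could move a fold. The minimum levels could not, since all 10 genes averaged more than 5 CPM, and added copies moved only Map1lc3b. Each of the 3 scalings was close to a single shift of every gene. Sqstm1 ranged from 0.34 to 0.36, Atg7 from 0.26 to 0.30, Optn from 0.23 to 0.27, and Ulk1 from -0.09 to -0.07. The scalings moved each fold by 0.02 or less, and with each library over its own total Optn also passed 1.2-fold, which made 3 of the 10 genes higher. With a 1.5-fold rule 0 of the 10 genes were higher, and of the wider list 2 were higher and 1 lower. With a 2-fold rule these were 0, 0 and 1. By coding length 4 of the 10 genes kept their place in the order of levels. The rank of the Sqstm1 fold among genes of like level, compared after the data were seen, was the 100th percentile within 1.5-fold and the 99.3rd within 3-fold. No paired analysis was possible because each group was 1 library, so no library could be left out either.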

Other observations

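Regulators that link p53 and cellular stress to autophagy were looked up as a list of 8 genes, chosen with some of their values known. Of these 8, 7 had at least 1 CPM. Counting intervals lay above 0 for 4 and below 0 for 1, where 17.2% and 19.2% of all compared genes did. At least 1.2-fold higher were 3 and lower 1, where 11.5% and 9.91% of all compared genes were. Sesn2, one of the sestrins that restrain mTORC1, was at 79.5 CPM in the LY500307 library and 56.0 CPM in the control library, a fold of 0.50. Sesn1 and Sesn3 had folds of 0.31 and 0.23. Trp53inp1 and Trp53inp2 both encode proteins that bind ATG8 proteins, and they lay on opposite sides. Trp53inp1 was at 67.2 CPM in the LY500307 library and 32.2 CPM in the control library. Its fold of 1.04, with a log2 ratio interval of 0.91 to 1.21, was the largest of the 8. Trp53inp2 was at 72.5 CPM in the LY500307 library and 88.9 CPM in the control library, a fold of -0.29. The lysosomal membrane gene Dram2 had a fold of 0.17 with an interval that included 0, as did Tigar at -0.05, and Dram1 had 3 reads in the LY500307 library and 4 in the control library.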
